A study of Mus musculus with 8 samples.

Results

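The genes described here encode the mTOR kinase, the proteins that switch it on and off, its best-known substrates and a protein through which rapamycin reaches it. They were found as the array probes whose gene name in the files is Mtor (listed under its older symbol Frap1), Deptor (listed as Depdc6), Fkbp1a, Eif4ebp1, Rheb, Tsc1, Tsc2, Rps6kb1 or Rps6kb2. That rule gave 23 probes of 9 genes among the 41174 probes of the array. Rictor was also sought, but no probe carries that name. It was reached only through a RefSeq synonym or accession, as 8 probes with a clone-type name, and these are described apart and counted nowhere.

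The samples were salivary gland tissue of mice, each hybridised to a 1-colour Agilent whole mouse genome array. The groups were tumours left untreated (n = 2), tumours after 3 days of rapamycin (n = 1), tumours after 14 days of rapamycin (n = 2), untreated normal parotid gland (n = 2) and untreated normal submandibular gland (n = 1). Rapamycin is an inhibitor of mTOR. According to the series' title the tumours were induced by AKT, a kinase upstream of mTOR. The transgene and its promoter, the strain, the age and the dose of rapamycin are not given in the sources used here. The labels do not say whether the arrays within a group came from different animals. The sex-linked transcripts given below differed between the 2 untreated tumours and between the 2 parotids, but not between the 2 day 14 arrays, whose spread may be technical.

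mTOR works in 2 protein complexes. Complex 1, with Raptor, drives protein synthesis by phosphorylating the S6 kinases and the 4E-binding proteins, which otherwise hold back cap-dependent translation. Complex 2, with Rictor, phosphorylates AKT and SGK kinases. The small GTPase Rheb switches complex 1 on at the lysosome, the TSC1-TSC2 complex switches Rheb off, and Deptor binds and inhibits mTOR in both complexes. Rapamycin binds FKBP12, the product of Fkbp1a, and the pair then docks on mTOR.

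Values are log2 processed signals relative to the 75th-percentile signal of the same array, and a difference of 1 is therefore 2-fold. Differences are thus relative to the rest of each array. A probe can stand higher on this scale while its unscaled signal is lower. Levels are not comparable between probes, because each probe binds its target with its own strength. Of the 23 probes, 18 were tested because 1 or more groups showed them well above background throughout, and 14 of these were so on all 8 arrays. The other 5 comprised 4 that stayed at background on all arrays (1 of Fkbp1a, 2 of Rps6kb1 and 1 of Rps6kb2) and an Eif4ebp1 probe seen only on untreated tumour replicate 2 and parotid replicate 1. The 2 slides carried mixed groups, slide 1 both untreated tumours with the first parotid and first day 14 arrays, and slide 2 the rest. Overall brightness, taken as the 75th-percentile signal, ranged from 145 to 730 on the other arrays against 966 and 972 for untreated tumour, and the share of spots well above background ranged from 43.2% to 58.4%. On the day 3 array 791 spots were called non-uniform, against 5 to 51 on the others, but no spot of these 23 probes was among them.

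The tissues differed in their cells as well as in treatment, and in bulk RNA fewer cells of a type cannot be told apart from less RNA per cell. The summed signal of 8 cell division markers was 130 to 139 times the 75th percentile in untreated tumour, 90.4 at day 3, 6.83 to 7.11 at day 14 and 3.12 to 10.2 in the normal glands. The 8 measured acinar markers summed to 67.0 to 103 in untreated tumour, 86.7 at day 3, 3209 to 3506 at day 14, 2653 to 4674 in parotid and 679 in submandibular gland. All 7 skeletal muscle markers were well above background at day 14, where they summed to 765 to 870, against 2.82 to 8.14 in untreated tumour, 12.1 at day 3, 6.29 and 84.3 in the parotids and 2.52 in submandibular gland. The 5 granular duct markers summed to 0.837 to 1.02 in untreated tumour, 2.02 at day 3, 3151 to 3251 at day 14, 370.1 to 702 in parotid and 2825 in submandibular gland. The 4 adipocyte markers summed to 13.0 to 22.8 in untreated tumour, 87.9 at day 3 and 229 to 266 at day 14. In the parotids they summed to 48.7 and 199, and in submandibular gland to 29.7. Between untreated tumour and day 14, the 5 B and plasma cell markers went from 0.133 to 0.259 up to 68.3 to 74.4, and the 5 T cell markers from 0.232 to 0.249 up to 8.65 to 11.01. The B and plasma cell sum was 0.247 at day 3, 56.8 to 94.5 in parotid and 46.3 in submandibular gland. The T cell sum was 0.174 at day 3, 50.5 and 1.21 in the parotids and 2.99 in submandibular gland. Xist, which is expressed from an inactive X, and the Y-linked Ddx3y were both well above background on both day 14 arrays (Xist at -2.10 and -2.40, Ddx3y at 1.72 and 1.41), whereas each other array held 1 of them only. Untreated tumour replicate 1 (Ddx3y at 0.48, Xist at -5.45) and parotid replicate 2 (1.11 and -5.17) held Ddx3y alone. Untreated tumour replicate 2 (Xist at 4.19, Ddx3y at -7.62), parotid replicate 1 (4.46 and -6.04), the day 3 tumour (4.42 and -5.94) and the submandibular gland (3.1 and -5.06) held Xist alone. The part of these cell and sample differences in any result below was not tested.

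Fkbp1a, whose product binds rapamycin, had the largest fitted fall at day 14 of the 18 tested probes. Falls of the Tsc1 and Rps6kb1 probes at background there are known only as bounds. The detected Fkbp1a probe, at chr2:151252239-151252298 (mm8, plus strand), was at 1.59 and 1.32 in untreated tumour, 0.91 at day 3, -2.33 and -1.75 at day 14, -1.09 and -0.99 in parotid and -0.48 in submandibular gland. The untreated and day 3 tumours were thus above all glands, and both day 14 arrays were below them. Day 14 stood -3.50 ± 0.29 from untreated tumour (log2 difference ± standard error, n = 2 and 2, limma adjusted p = 0.000463), an 11.3-fold lower signal. At day 3 the difference was -0.55 ± 0.36 (adjusted p = 0.744), and day 14 lay -2.95 ± 0.36 from day 3 (adjusted p = 0.00397). Untreated tumour was 5.65-fold higher than parotid (2.50 ± 0.29, adjusted p = 0.00153) and 3.82-fold higher than submandibular gland (1.93 ± 0.36, adjusted p = 0.0108). Day 14 was lower than parotid by a margin that missed the threshold (-1.0 ± 0.29, adjusted p = 0.0703). The fall at day 14 held in all 18 other ways of processing, at -3.79 to -2.55, and was -3.79 within slide 1. The call against submandibular gland was lost without untreated tumour replicate 1 (1.80, adjusted p = 0.0701).

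The promoters of Fkbp1a and Mtor are shown because one gene stands for the rapamycin binder and the other for the drug's target. They are the 250 bases before the RefSeq start (GRCm38.p6), on the gene's own strand from 5′ to 3′. Capitals mark matches, on either strand, to the GC box bound by Sp1 family factors (GGGCGG).

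Fkbp1a, chr2:151542233-151542482, plus strand: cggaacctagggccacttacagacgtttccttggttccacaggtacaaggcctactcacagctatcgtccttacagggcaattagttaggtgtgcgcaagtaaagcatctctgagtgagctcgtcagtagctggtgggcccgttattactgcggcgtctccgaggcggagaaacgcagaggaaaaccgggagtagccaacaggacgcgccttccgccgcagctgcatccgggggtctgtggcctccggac

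Mtor, chr4:148448332-148448581, plus strand: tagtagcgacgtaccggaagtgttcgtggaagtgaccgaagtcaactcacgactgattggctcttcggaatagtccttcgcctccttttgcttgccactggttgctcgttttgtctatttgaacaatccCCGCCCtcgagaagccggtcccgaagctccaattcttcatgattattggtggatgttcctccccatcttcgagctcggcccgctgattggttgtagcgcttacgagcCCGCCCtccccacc

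The Mtor window holds 2 GC boxes, starting at -121 and -14, and the Fkbp1a window none; 32.74% of the 32851 promoters of the same length hold at least 1. Neither window holds the E-box CACGTG (in 6.02% of promoters), the forkhead motif TGTTTAC (3.17%) or the E2F-type motif GGCGGGAA (1.86%), each searched on both strands. The GC box and the E2F-type motif share letters, so their matches can overlap. Of the 10 genes, 7 matched a promoter, among which Rheb has an E-box at -96 and Rictor 4 GC boxes. These matches describe letters in a window and show no bound factor.

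Deptor, the inhibitor carried by both mTOR complexes, moved opposite to Fkbp1a, on both of its probes. The probe at chr15:55082281-55082340 (mm8, plus strand) was at -0.82 and -0.83 in untreated tumour, -0.97 at day 3, 1.44 and 1.09 at day 14, 0.84 and 1.54 in parotid and 2.15 in submandibular gland. The probe 3234 bases downstream read -2.35 and -2.05, -1.63, 0.66 and 0.36, 0.27 and 0.69, and 0.72 in the same order. On both, every untreated and day 3 tumour was below every day 14 tumour and every gland. Against untreated tumour, day 14 was 4.26-fold higher on the first probe (2.09 ± 0.30, adjusted p = 0.00249) and 6.53-fold higher on the second (2.71 ± 0.28, adjusted p = 0.00089). Against day 3 the rises were 2.23 ± 0.36 (adjusted p = 0.01) and 2.13 ± 0.35 (adjusted p = 0.00999), calls that were lost when either day 14 array was left out. Day 3 itself differed from untreated tumour by -0.14 ± 0.36 and 0.57 ± 0.35, neither past the threshold.

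Deptor was also lower in untreated tumour than in the glands. The differences from parotid were -2.01 ± 0.30 (adjusted p = 0.00361) and -2.68 ± 0.28 (adjusted p = 0.00109), and from submandibular gland -2.98 ± 0.36 (adjusted p = 0.00264) and -2.92 ± 0.35 (adjusted p = 0.0024). The Deptor calls for tumour against either gland and for day 14 against untreated tumour held in every other way of processing tried. All of these put the arrays on a common scale, so they do not test the scaling itself. Before scaling, the processed signal of the first probe was 547 and 546 in untreated tumour and 482 and 501 at day 14. That of the second probe was 190 and 235 in untreated tumour and 280 and 302 at day 14. At day 14 the probes differed from parotid by 0.08 ± 0.30 (adjusted p = 0.905) and 0.03 ± 0.28 (adjusted p = 0.969), and the day 14 and parotid arrays overlapped on both.

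Eif4ebp1 encodes 4E-BP1, a repressor of cap-dependent translation that complex 1 inactivates. Its probe at chr8:28741351-28741410 (mm8, plus strand) read 4.02 and 3.90 in untreated tumour, 3.63 at day 3, 5.66 and 5.67 at day 14, 6.05 and 7.32 in parotid and 5.64 in submandibular gland. All untreated and day 3 tumours were below all other arrays on this scale. Before scaling, the probe's processed signal was 15661 and 14493 in untreated tumour and 8975 and 12026 at day 14. Untreated tumour was 6.60-fold lower than parotid (-2.72 ± 0.41, adjusted p = 0.00369), in every way of processing tried. Day 14 was 3.27-fold higher than untreated tumour (1.71 ± 0.41, adjusted p = 0.0154), but leaving out any 1 of these 4 arrays ended that call (adjusted p = 0.0615 to 0.0898, with differences of 1.65 to 1.77). The differences of day 14 from day 3 (2.04 ± 0.50, adjusted p = 0.0329) and of untreated tumour from submandibular gland (-1.68 ± 0.50, adjusted p = 0.049) also lost their calls when any 1 untreated or day 14 array was left out, and without an intensity trend (adjusted p = 0.0529 and 0.0747). The submandibular call was lost as well with slide as a fixed block (-1.04, adjusted p = 0.258) or a random one (-1.59, adjusted p = 0.0611). Day 14 lay below both parotids, but the difference missed the threshold (-1.01 ± 0.41, adjusted p = 0.147). The other 4E-BP genes were not called between day 14 and untreated tumour, Eif4ebp2 differing by -0.03 ± 0.43 (adjusted p = 0.954) and Eif4ebp3 by -0.20 ± 0.25 (adjusted p = 0.543).

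**Figure D1:**
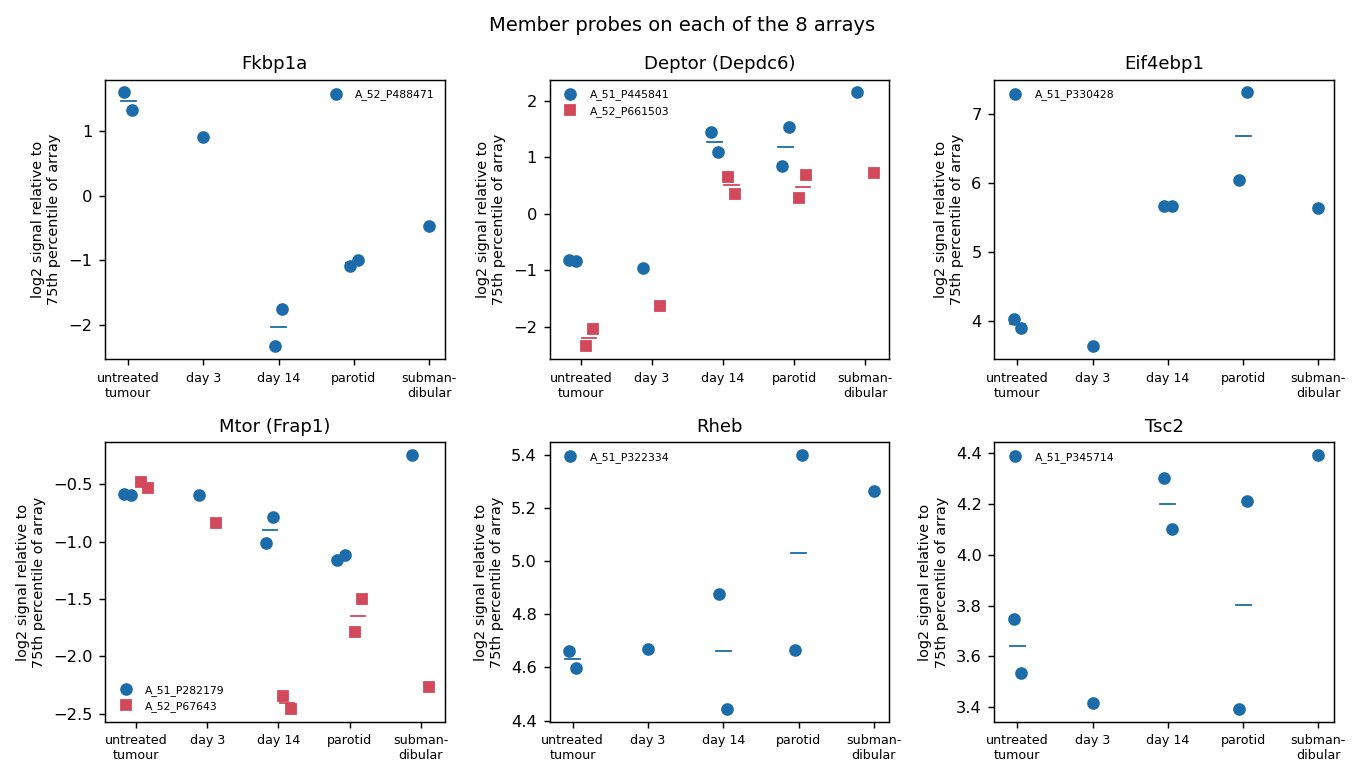
Log2 signal relative to the 75th percentile of the array (vertical axis) of the detected probes of Fkbp1a, Deptor, Eif4ebp1, Mtor, Rheb and Tsc2 in each group (horizontal axis). Each point is 1 array, colours and shapes separate the probes of a gene, and short bars are means of 2 arrays. Fkbp1a stands at 1.32 to 1.59 in untreated tumour and -2.33 to -1.75 at day 14, while both Deptor probes and Eif4ebp1 stand higher at day 14 and in the glands than in the untreated and day 3 tumours.

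Mtor itself was called on 1 of its 2 probes only. The downstream probe (chr4:147400941-147401000, mm8, plus strand) read -0.58 and -0.59 in untreated tumour, -0.60 at day 3, -1.01 and -0.78 at day 14, -1.16 and -1.12 in parotid and -0.25 in submandibular gland. It was past the threshold in no comparison, and day 14 differed from untreated tumour by -0.31 ± 0.25 (adjusted p = 0.342). The probe 102234 bases upstream (chr4:147298707-147298766) read -0.48 and -0.53, -0.84, -2.35 and -2.46, -1.79 and -1.50, and -2.27 in the same order. There day 14 was 3.73-fold lower than untreated tumour (-1.90 ± 0.29, adjusted p = 0.00305) and 2.96-fold lower than day 3 (-1.57 ± 0.35, adjusted p = 0.0261). Untreated tumour was higher than parotid (1.14 ± 0.29, adjusted p = 0.0245) and submandibular gland (1.76 ± 0.35, adjusted p = 0.0139). Normexp background correction was run with an offset of 50 added to each signal, which narrows the differences of dim probes. The processed signal of the upstream probe at day 14 was 35 and 43. With normexp the upstream fall from untreated tumour was -0.92 (adjusted p = 0.0496). The calls for day 14 against day 3 (-0.55), untreated tumour against parotid (0.62) and untreated tumour against submandibular gland (1.06) were lost. The call against parotid was also lost without any 1 untreated or day 14 array (1.12 to 1.16), that of day 14 against day 3 likewise (-1.62 to -1.51), and that against submandibular gland without either untreated tumour (1.74 and 1.79). With slide as a fixed block the calls against day 3 (-1.52, adjusted p = 0.0572) and submandibular gland (1.85, adjusted p = 0.063) were lost.

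Where a probe lies along its transcript moved with the groups across the array. Over 2701 pairs of probes of 1 transcript lying 1000 to 500000 bases apart, the upstream probe changed less upward, or more downward, than the downstream one by a median of -0.61 between day 14 and untreated tumour, and it was the lower of the pair in 72.5%. The middle 50% of pairs ran from -1.27 to 0.08. The Mtor pair, at -1.59, lay outside that range. Its 2 probes are annotated to different transcript records, so it is not one of the 2701 pairs and is not strictly comparable with them. For untreated tumour against parotid the median was 0.24, and for day 3 against untreated tumour it was -0.26. By array, the upstream minus downstream signal, taken relative to each pair's own mean over the 8 arrays, had a median of 0.20 and 0.33 in untreated tumour and -0.37 and -0.34 at day 14, with -0.01 to 0.10 elsewhere. The Deptor pair, also annotated to different transcript records, stood at -0.62 between day 14 and untreated tumour. On 1 shared record, the Tsc1 probes 3780 and 3351 bases upstream stood at -2.86 and -1.01 from the last, and the Rps6kb2 pair at -0.82. The -2.86 uses readings at background at day 14. On different records, the Rps6kb1 pair 5553 bases apart (0.94) and the Tsc1 pair 16934 bases apart (1.35) went the other way. The part of probe position in the results for any of these genes was not tested.

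**Figure D2:**
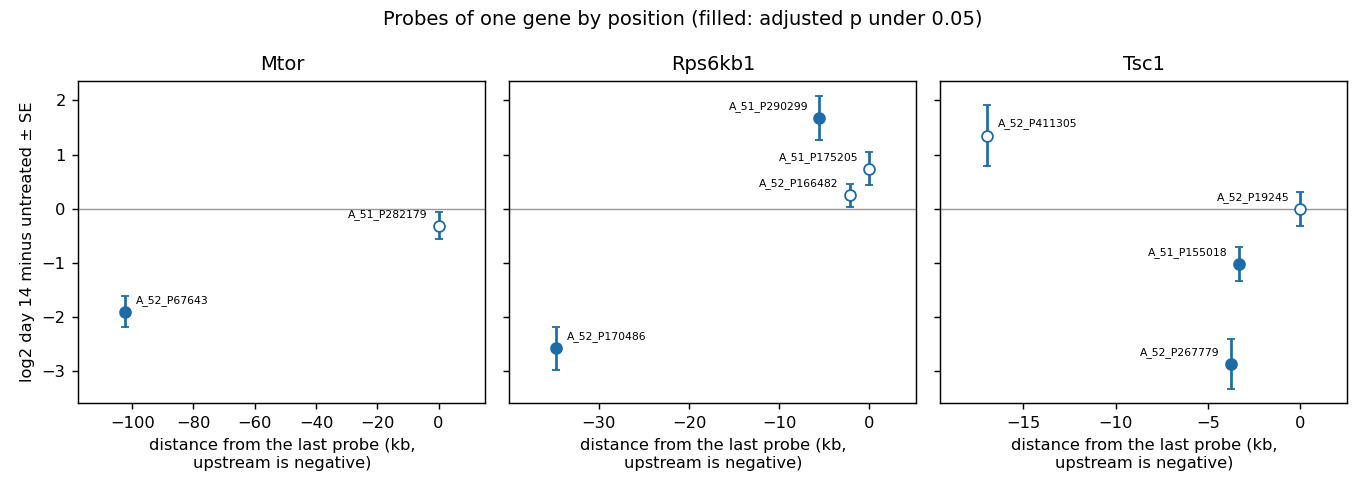
Log2 difference between day 14 and untreated tumour (vertical axis, with standard error) of the tested probes of Mtor, Rps6kb1 and Tsc1, against distance from the gene's last probe (horizontal axis, kb, upstream negative), with filled points past an adjusted p of 0.05. The upstream Mtor probe (-1.90) lies below the downstream one (-0.31). The most upstream Rps6kb1 probe is drawn at its fitted value of -2.57 and the Tsc1 probe 3780 bases upstream at -2.86. Neither was well above background at day 14, and they bear only bounds of at least 2.00-fold and 1.75-fold. An Rps6kb1 probe 5553 bases upstream (1.68) lies above the last one (0.74), and the most upstream Tsc1 probe (1.35) above its last (-0.00).

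Rheb, the GTPase that activates complex 1, passed the threshold in no comparison. Its probe (chr5:24312869-24312903, mm8, minus strand) read 4.66 and 4.60 in untreated tumour, 4.67 at day 3, 4.88 and 4.44 at day 14, 4.66 and 5.40 in parotid and 5.26 in submandibular gland. Day 14 differed from untreated tumour by 0.03 ± 0.30 (adjusted p = 0.943), with overlapping arrays. Tsc2, the GTPase-activating subunit of the complex that restrains Rheb (chr17:24323537-24323579, minus strand), read 3.75 and 3.54, 3.42, 4.30 and 4.10, 3.39 and 4.21, and 4.39. No Tsc2 comparison passed the threshold. Day 14 differed by 0.56 ± 0.30 (adjusted p = 0.173) from untreated tumour and by 0.79 ± 0.37 (adjusted p = 0.175) from day 3, and untreated tumour by -0.75 ± 0.37 (adjusted p = 0.181) from submandibular gland.

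Tsc1, the stabilising partner of Tsc2, had 4 tested probes that disagreed. The most downstream (chr2:28512471-28512530, mm8, plus strand) stayed between -1.56 and -1.02 on all arrays and differed by -0.00 ± 0.31 between day 14 and untreated tumour (adjusted p = 0.996). The probe 3351 bases upstream read -0.58 and -0.72 in untreated tumour, -1.01 at day 3, -1.42 and -1.91 at day 14, -2.18 and -2.27 in parotid and -2.17 in submandibular gland. On that probe day 14 was lower than untreated tumour (-1.02 ± 0.31, adjusted p = 0.0353, called in 11 of 18 other ways of processing), and untreated tumour was higher than parotid (1.58 ± 0.31, adjusted p = 0.0101) and submandibular gland (1.52 ± 0.38, adjusted p = 0.0287). Leaving out any 1 day 14 or untreated array ended the day 14 call (-1.26 to -0.78), leaving out either untreated tumour ended the parotid call (1.5 and 1.65), and leaving out any 1 untreated or day 14 array ended the submandibular call (1.45 to 1.59). With slide as a fixed block the day 14 call (-0.88, adjusted p = 0.086) and the submandibular call (1.24, adjusted p = 0.151) were lost, and within slide 1 the day 14 difference was -0.78 (adjusted p = 0.0536). With normexp all of these calls were lost, at -0.51 for day 14, 0.76 against parotid and 0.84 against submandibular gland. A neighbouring probe was well above background in the untreated tumours only, at -2.62 and -2.71, and was kept through them alone. As bounds, they stood at least 1.75-fold above day 14 and at least 1.82-fold above parotid. The limma calls on it (adjusted p = 0.00369 and 0.0145) concern the fitted differences of -2.86 and 2.12. Those use readings at background and do not test the bounds. With normexp background correction the fitted differences were -0.23 at day 14 and 0.22 against parotid and were not called, and the parotid call was also lost without either untreated tumour (2.07 and 2.16). The probe farthest upstream, 16934 bases from the last, went the other way at day 14, at -1.61 and -1.15 against -2.40 and -3.07 in untreated tumour, but missed the threshold (1.35 ± 0.57, adjusted p = 0.0933). On it, untreated tumour was at least 1.16-fold above submandibular gland (adjusted p = 0.0415), a call lost with normexp (0.53), with slide as a fixed (1.98, adjusted p = 0.207) or random block (2.42, adjusted p = 0.0505) and without any 1 untreated or day 14 array (2.15 to 2.82). That call too concerns a fitted difference (2.49) that uses a reading at background and does not test the bound.

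The S6 kinases are the other classic substrates of complex 1. Rps6kb1 (S6K1) had 4 tested probes. The brightest and most downstream (chr11:86315442-86315501, mm8, minus strand) read 0.67 and 0.33 in untreated tumour, 0.29 at day 3, 1.38 and 1.11 at day 14, 1.19 and 1.92 in parotid and 0.76 in submandibular gland. All untreated and day 3 tumours were below all other arrays, yet the day 14 difference missed the threshold (0.74 ± 0.31, adjusted p = 0.09). The lower signal in untreated tumour than in parotid passed it (-1.05 ± 0.31, adjusted p = 0.0394), but did so in only 8 of 18 other ways of processing, and not without parotid replicate 2 (-0.69) or any 1 untreated or day 14 array (-1.22 to -0.88). A dim probe 5553 bases upstream rose on this scale at day 14, from -3.66 and -4.12 to -2.28 and -2.15 (1.68 ± 0.41, adjusted p = 0.0166). The call was lost with normexp (1.06) or without any 1 of these 4 arrays (1.45 to 1.91). Before scaling, the processed signal of that dim probe was 76.2 and 55.9 in untreated tumour and 36.6 and 53.3 at day 14.

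The most upstream Rps6kb1 probe, 34726 bases from the last and spanning 1245 bases of genome (chr11:86348983-86350227), moved downward. It was at -2.61 and -2.33 in untreated tumour, -3.37 at day 3 and -2.88 and -2.35 in parotid, and not well above background at day 14 or in submandibular gland. Untreated tumour was at least 2.00-fold above day 14 (adjusted p = 0.00336) and at least 1.40-fold above submandibular gland (adjusted p = 0.0123), and parotid was at least 1.81-fold above day 14 (adjusted p = 0.0185). Those adjusted p-values are of the fitted differences, which use readings at background, and do not test the bounds. With normexp, whose offset of 50 narrows differences between dim signals, all of these calls were lost. The differences were then -0.22 between day 14 and untreated tumour, 0.39 between untreated tumour and submandibular gland and -0.37 between day 14 and parotid. Unscaled processed signals of this probe were 158 and 194 in untreated tumour and 5.55 and 6.97 at day 14. The 75th-percentile signals of the same arrays were 966 and 972 in untreated tumour and 177 and 236 at day 14. The submandibular call was also lost without either untreated tumour (2.68 and 2.40) and with slide as a fixed block (2.76, adjusted p = 0.0525), and the parotid call without any 1 day 14 or untreated array (-2.46 to -2.38) and with only the arrays compared (adjusted p = 0.0515). The fourth probe, 2186 bases from the last, stayed between -0.21 and 0.70 and was called nowhere. Rps6kb2 (S6K2) was called nowhere on its 2 tested probes (chr19:4158669-4158839 and chr19:4157548-4157694, minus strand). The first lay between -1.88 and -1.34 on all 8 arrays. The second read -0.76 and -0.70 at day 14, above all other arrays, which lay between -2.18 and -1.37 (0.82 ± 0.29 against untreated tumour, adjusted p = 0.0556).

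Rictor, which defines complex 2, was measured well above background on all arrays by 1 of its 8 probes. It read -1.86 and -2.13 in untreated tumour, -1.77 at day 3, -1.41 and -1.76 at day 14, -1.72 and -1.73 in parotid and -2.27 in submandibular gland. Day 14 differed from untreated tumour by 0.42 ± 0.31 (adjusted p = 0.304), and no comparison of this probe passed the threshold.

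Over the 18 tested probes, day 14 and untreated tumour differed on 9 (4 higher and 5 lower, from 6 genes), and 46.5% of all 24273 tested probes were called in that comparison (21.5% higher and 24.9% lower). The share among these probes was thus near that of the array, and their median difference was 0.14 against -0.10 over all probes. Untreated tumour and parotid differed on 8 (4 higher and 4 lower, from 6 genes) against 35.9% of all probes (18.3% higher and 17.5% lower). Both counts include the Tsc1 probe that was kept through the untreated tumours alone. Day 14 and day 3 differed on 5 (3 higher and 2 lower) against 21.4% (9.56% higher and 11.8% lower), and untreated tumour and submandibular gland on 8 (5 higher and 3 lower) against 27.3% (13.8% higher and 13.5% lower). Day 14 and parotid differed on 1 probe, the upstream Rps6kb1 one, which was lower, against 13.0% (6.66% lower), with 6 of the 18 and 31.2% of all probes at an unadjusted p under 0.05. Day 3 and untreated tumour differed on 0 of 18 in the limma fit, and 0.00412% of all probes, which is 1 probe, were called. At an unadjusted p under 0.05 there were 0 of the 18 and 8.61% of all probes. Submandibular gland and parotid differed on 0 of 18 against 2.14% called, with 5 of the 18 and 4129 of the 24273 probes at an unadjusted p under 0.05. The shares over all probes themselves moved when 1 array was left out. They ran from 23.4% to 62.9% for day 14 against untreated tumour, 16.2% to 48.6% for untreated tumour against parotid, 4.71% to 42.9% for day 14 against day 3 and 13.1% to 47.1% for untreated tumour against submandibular gland. For day 14 against parotid the share was 0% without either day 14 array, 5.07% and 5.14% without either untreated tumour, and 35.4% and 24.3% without parotid replicate 1 and 2. For day 3 against untreated tumour 0 to 286 probes were called, and for submandibular gland against parotid 0.0453% to 19.3%. These comparisons share arrays and are not independent of each other.

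**Figure D3:**
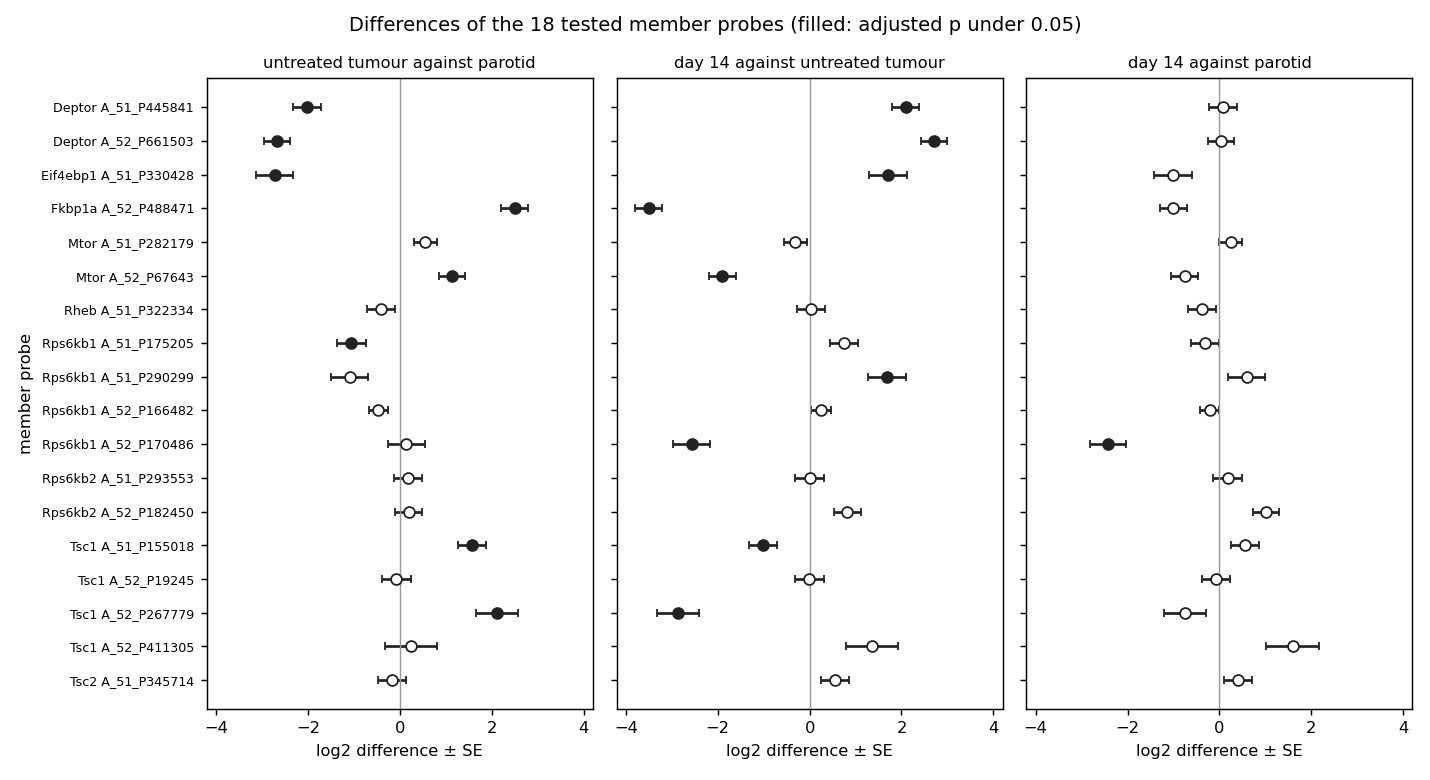
Log2 difference (horizontal axis, with standard error) of the 18 tested probes (vertical axis) in 3 comparisons: untreated tumour against parotid, day 14 against untreated tumour and day 14 against parotid, with filled points for differences past an adjusted p of 0.05. Fkbp1a (-3.50) lies farthest below 0 and the Deptor probes (2.09 and 2.71) farthest above it in the comparison of day 14 with untreated tumour. Some points are fitted values that use readings at background. They are those of the most upstream Rps6kb1 probe at day 14, and of the Tsc1 probe kept through the untreated tumours alone.

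Among the other subunits of the complexes few were called at day 14. Each gene of the lists that follow is represented by its brightest probe, and 24.6% of all 16356 genes were called higher and 23.9% lower at day 14 than in untreated tumour, with a median difference of 0.02. Of 8 subunits and assembly partners 0 rose and 2 fell, and the median was -0.62. Mapkap1, the Sin1 subunit of complex 2, fell by 1.09 ± 0.24 (adjusted p = 0.0112, probes from -1.09 to -0.47) and Tti1, a factor that assembles mTOR-type kinases, by 0.86 ± 0.28 (adjusted p = 0.0446). Rptor, the scaffold of complex 1, differed by -0.35 ± 0.20 (adjusted p = 0.2), though its probes ran from -2.15 to -0.35, and Mlst8, shared by both complexes, by 0.30 ± 0.24 (adjusted p = 0.324). Against parotid, 19.0% of all genes were higher and 20.5% lower in untreated tumour, and of the subunits only Prr5l, a partner of Rictor, was called. It read 4.17 and 4.01 in untreated tumour and 0.80 and -0.12 in parotid (3.76 ± 0.32, adjusted p = 0.000494). In normal submandibular gland it read 3.23, which is 2.89 ± 0.39 above parotid. Untreated tumour stood 0.87 ± 0.39 above submandibular gland and was not called against it.

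Inputs to the TSC-Rheb switch changed in both directions. At day 14, 1 of 4 partners rose and 2 fell. Ddit4 (REDD1), a stress-induced inhibitor of complex 1, went from 7.56 and 7.49 to 5.95 and 5.81 (-1.64 ± 0.41, adjusted p = 0.0189), while its relative Ddit4l went from 0.20 and 0.04 to 2.22 and 2.73 (2.35 ± 0.71, adjusted p = 0.0348). Tbc1d7, the third subunit of the TSC complex, fell by 2.12 ± 0.41 (adjusted p = 0.00709). The Rheb-like Rhebl1 differed by 0.67 ± 0.48 (adjusted p = 0.29). Against parotid 1 of the 4 was called, Tbc1d7, which was higher in untreated tumour (1.49 ± 0.41, adjusted p = 0.0313).

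Of 25 genes of lysosomal amino acid sensing 5 rose and 4 fell at day 14, and the median was -0.15. Sesn1, a leucine sensor that restrains complex 1, went from 1.59 and 1.81 to 3.98 and 4.07 (2.33 ± 0.22, adjusted p = 0.000603, probes from 1.20 to 2.33). Rragd, one of the Rag GTPases that bring complex 1 to the lysosome, rose by 1.90 ± 0.40 (adjusted p = 0.00966, probes from 0.32 to 1.90), and Flcn, which regulates the Rags, by 1.84 ± 0.19 (adjusted p = 0.000874). The 6 genes called in untreated tumour against parotid were all lower in the tumours. They included Sesn1 (-3.10 ± 0.22, adjusted p = 0.000284), Rragd (-1.67 ± 0.40, adjusted p = 0.0202) and the arginine sensor Castor1 (-1.71 ± 0.49, adjusted p = 0.0365), which was well above background in 1 of the 2 parotids.

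The PI3K and AKT genes upstream had a median of 0.85 at day 14, with 5 of 16 higher and 2 lower. The regulatory subunit Pik3r3 fell from 3.69 and 4.0 to 0.83 and 1.16 (-2.85 ± 0.29, adjusted p = 0.000764), and Pik3r1 rose by 1.57 ± 0.33 (adjusted p = 0.00981), though its probes ran from -0.43 to 1.57. Akt1 differed by -0.63 ± 0.23 (adjusted p = 0.0612). In untreated tumour against parotid 2 of 16 were higher and 4 lower, among them Pik3r3 (3.24 ± 0.29, adjusted p = 0.000579) and Pik3ca, the catalytic subunit (-1.16 ± 0.22, adjusted p = 0.00845). AMPK and its activator LKB1, which restrain complex 1 when energy is low, had 3 of 9 genes higher and 1 lower at day 14. The catalytic subunit Prkaa2 went from -1.86 and -1.98 to 0.56 and 0.27 (2.33 ± 0.26, adjusted p = 0.00109), Prkab2 rose by 1.41 ± 0.27 (adjusted p = 0.00716) and Stk11 (LKB1) by 1.10 ± 0.25 (adjusted p = 0.013). Prkaa2 was also lower in untreated tumour than in parotid (-1.65 ± 0.26, adjusted p = 0.00478).

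Downstream, 2 of 15 translation effectors rose and 6 fell at day 14, with a median of -0.68. Pdcd4, an inhibitor of the eIF4A helicase that S6K1 marks for destruction, went from -2.10 and -1.34 to 0.38 and 0.46 (2.14 ± 0.31, adjusted p = 0.00259). The elongation factor Eef2 fell by 1.62 ± 0.37 (adjusted p = 0.0138) and the cap-binding Eif4e2 by 1.68 ± 0.32 (adjusted p = 0.00686, probes from -2.71 to 0.44). In untreated tumour against parotid 1 was higher, the helicase Eif4a1 (0.86 ± 0.21, adjusted p = 0.0221), and 2 were lower, Pdcd4 (-3.95 ± 0.31, adjusted p = 0.0004) and Eif4a2 (-1.48 ± 0.27, adjusted p = 0.00762). Of 4 complex 2 targets, the kinase Sgk1 went from 1.42 and 1.32 in untreated tumour, through 2.06 at day 3, to 4.98 and 4.76 at day 14 (3.50 ± 0.20, adjusted p = 0.000167). Ndrg1, a substrate of SGK kinases, went from 4.54 and 3.34 to 1.33 and 1.07 (-2.74 ± 0.41, adjusted p = 0.00283).

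The other FK506-binding proteins went in both directions. Of 13, 3 were higher and 2 lower at day 14, and the median was 0.16. Fkbp5, a glucocorticoid-induced co-chaperone, went from -2.20 and -2.12 to 1.52 and 1.70 (3.77 ± 0.46, adjusted p = 0.00139, probes from 1.31 to 3.77). Fkbp11, an endoplasmic reticulum member, went from 2.13 and 2.25 to 5.24 and 5.38 (3.12 ± 0.27, adjusted p = 0.000509), and Fkbp4, another co-chaperone, fell by 1.92 ± 0.31 (adjusted p = 0.00407, probes from -1.92 to -0.48). Fkbp1b, the closest relative of Fkbp1a, differed by -0.27 ± 0.39 (adjusted p = 0.596) and was well above background on 1 of the 2 day 14 arrays. In untreated tumour against parotid 1 was higher and 5 lower, with Fkbp11 (-3.34 ± 0.27, adjusted p = 0.000451), Fkbp5 (-2.89 ± 0.46, adjusted p = 0.00463) and Fkbp2 (-1.63 ± 0.20, adjusted p = 0.00193) the farthest down. At day 3, 0 genes of these lists were called against untreated tumour, where limma called 0.00611% of all genes.

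**Figure D4:**
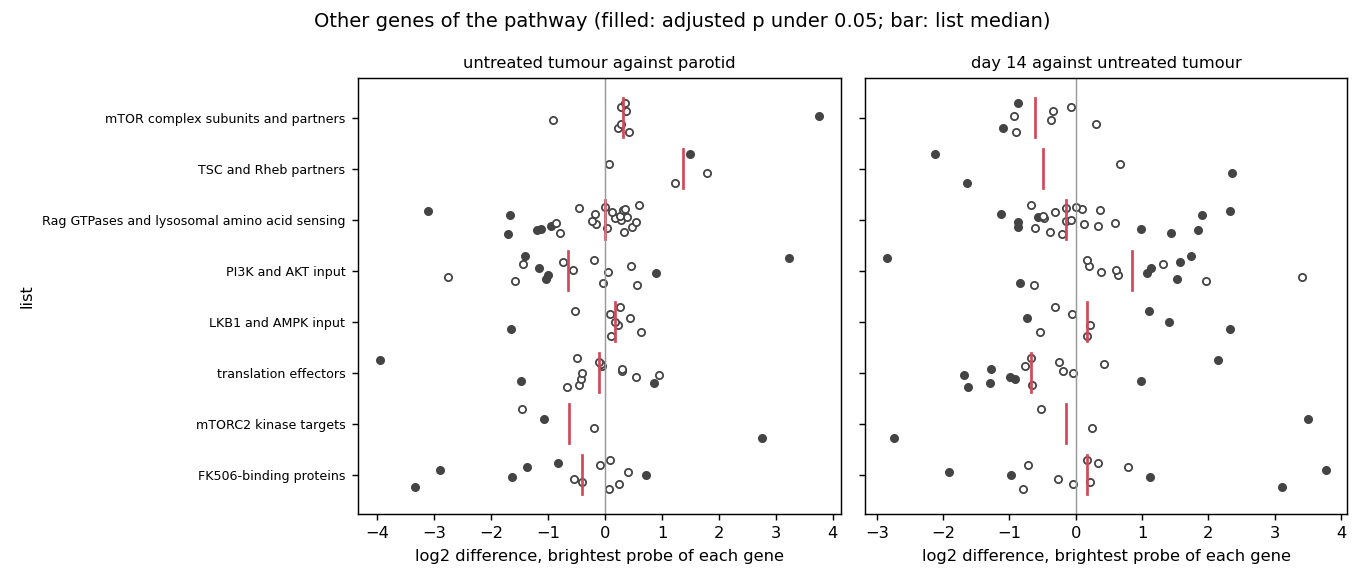
Log2 difference by brightest probe (horizontal axis) of the genes of 8 pathway lists (vertical axis), on the left untreated tumour against parotid, on the right day 14 against untreated tumour. Each point is a gene, filled past an adjusted p of 0.05, and bars are list medians. Of 8 complex subunits 0 rose and 2 fell at day 14, while PI3K and AKT genes had a median of 0.85.

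Day 14 tumours differed from parotid on 12 of the 94 tested genes of these lists, 5 higher and 7 lower, and across all genes 7.12% were called higher and 6.07% lower. Of the 15 translation effectors 5 were lower and 0 higher, with a median of -0.72. Without either day 14 array 0 of all probes were called in this comparison. At most 1 gene of each list is named here, by the naming rule. Prr5l (2.82 ± 0.32, adjusted p = 0.00761), Ddit4l (4.14 ± 0.71, adjusted p = 0.0202), Irs1, an insulin receptor adaptor (1.96 ± 0.27, adjusted p = 0.0123), Prkab2 (1.59 ± 0.27, adjusted p = 0.0197) and Sgk1 (2.44 ± 0.20, adjusted p = 0.00386) were higher at day 14. Eef2 (-2.29 ± 0.37, adjusted p = 0.0184), Fkbp4 (-1.51 ± 0.31, adjusted p = 0.0316, probes from -1.51 to -0.39) and Sec13, a subunit of the GATOR2 complex (-1.30 ± 0.28, adjusted p = 0.0331), were lower. Day 14 was not fitted against submandibular gland. In that gland Prr5l read 3.23, Irs1 3.26 and Sgk1 5.28, which is 2.89, 2.18 and 2.85 above parotid. At day 14 they read 3.16 and 3.16, 2.99 and 3.09, and 4.98 and 4.76. Ddit4l (0.34) and Prkab2 (-1.67) were lower in submandibular gland than at day 14 (2.22 and 2.73, 0.61 and 0.66).

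The genes whose pattern over the 8 arrays lay closest to a member were ranked by the root mean square difference of the centred log2 values, as a description with no test. Nearest to the brightest Fkbp1a probe were Nme7 (0.25), Plp2 (0.25), Tgif1 (0.26) and Apex1, a base-excision repair enzyme (0.27). Nearest to Deptor were Cab39l, a scaffold of LKB1 (0.18), Slc25a25 (0.22), Chchd10 (0.24) and Rragd (0.24). Cab39l read 2.18 and 2.08 in untreated tumour, 2.17 at day 3, 4.42 and 4.54 at day 14, 3.79 and 4.39 in parotid and 5.05 in submandibular gland. Nearest to Eif4ebp1 were Irx1 (0.24), C8g (0.25), Sgpp1 (0.26) and Kyat3 (0.26), and nearest to the downstream Mtor probe Faap100 (0.09), Mprip (0.10), Mrpl49 (0.11) and Nkiras1 (0.11).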

How the data were processed

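Per the labels' protocols, RNA was isolated with Trizol, and labelling used 300 ng of it. Per the file headers, the authors scanned 1-colour Agilent arrays (design 014868, probe positions on mm8) with Feature Extraction 10.7.3.1, whose deposited processed signal is a background-subtracted intensity of each spot, not scaled between arrays. The deposited table of log2 values (column medians 5.52 to 5.57, each column correlating at 0.987 to 0.994 with its own array) has no stated normalization and served as an alternative. Its scale was log2 and its direction that of the arrays, but how it was centred is not given in the sources used here.

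Outlier spots were left out (273 of the otherwise kept probes were lost), repeat spots of a probe averaged, and the log2 processed signal taken relative to each array's 75th percentile. Kept were 24273 probes that the scanner software called well above background throughout 1 or more groups. One mean per group was fitted over all 8 arrays with limma 3.58.1 in R 4.3.3 (lmFit, and eBayes with an intensity trend; 3 residual degrees of freedom, prior 3.44). The single arrays of day 3 and submandibular gland were thus assumed to vary like the replicated groups. Two-sided p-values were adjusted by Benjamini-Hochberg over all kept probes, with calls under 0.05. "At least" folds set the brighter group's mean against a floor averaged over the dim arrays, which is the lowest signal well above background or the probe's own signal if higher. An adjusted p beside such a fold is that of the fitted difference, which uses the readings at background, and does not test the bound. The fit was tested on simulated data.

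Every probe of the genes was described. From 8 lists of other pathway genes, up to 3 called genes of largest change were named for the main comparisons, and 1 otherwise; Akt1, Rptor, Mlst8, Eif4ebp2, Eif4ebp3, Fkbp1b and Rhebl1 were always named. A further gene that the rule names is not reported here. Of the list genes Rragb, Sgk2 and Fkbp6 were not kept and Irs2 was not found. Members and lists were chosen with earlier results of these data known. Alternatives changed the background correction (normexp, offset 50), normalization, filter, gene summary, trend, slide, replicate block, arrays fitted and minimum fold, or left out a replicate. Strand was read from the order of probe coordinates, which matched RefSeq in 99.56% of 19097 probes. No annotation on mm8 was used, so exon or intron is not stated.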

Additional observations from a re-analysis of the deposited data

Results flagged for a closer look

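The change from untreated tumour differed between the 2 rapamycin times on 5 of the 18 tested probes, by the limma test of day 14 against day 3, in which 21.4% of all probes were called. The day 14 change exceeded the day 3 change by 2.23 on the upstream and 2.13 on the downstream Deptor probe and by 2.04 on Eif4ebp1. It lay lower by -2.95 on Fkbp1a and by -1.57 on the upstream Mtor probe. Day 3 was a single array, so its own spread was not measured. Only the Fkbp1a call held in all 16 other ways of processing (highest adjusted p = 0.0346); the highest adjusted p was 0.0757 and 0.0748 for the Deptor probes, 0.142 for Eif4ebp1 and 0.395 for Mtor.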

How the results depend on the processing

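Of 31 called member values, 436 recomputed values kept their direction and call, 89 kept their direction and lost the call, and 0 reversed with a call. Of 1571 recomputed uncalled values 64 became calls and 79 changed sign uncalled. Leaving an array out left fewer degrees of freedom and also changed the estimate of spread that all comparisons share. With either parotid left out, the count for day 14 against day 3, which uses no parotid, went from 5 to 10. Counts of called probes moved by over 1.5 times as follows, and the cause was not tested. With normexp background correction, day 14 against untreated tumour had 5 (from 9), untreated tumour against parotid 5 (from 8) and against submandibular gland 4 (from 8), and day 14 against parotid 0 (from 1). With only the arrays compared, day 14 against day 3 had 10 (from 5) and day 14 against parotid 0. With the mean of a gene's probes, day 14 against parotid had 0 and untreated tumour against submandibular gland 2 of 9 genes. With slide as a fixed block the latter had 3. Without an intensity trend, or with quantile normalization, submandibular gland against parotid had 1 (from 0). Leaving out single replicates gave 1 to 10 for day 14 against day 3, 0 to 6 for day 14 against parotid, 4 to 11 for untreated tumour against parotid, 2 to 10 for untreated tumour against submandibular gland, 0 to 4 for submandibular gland against parotid, 6 to 13 for day 14 against untreated tumour and 0 to 0 for day 3 against untreated tumour.

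Whether replicate numbers pair the samples is not stated in the labels. Same-numbered arrays' deviations correlated across probes at 0.13 (day 14 and untreated tumour), 0.01 (parotid and untreated tumour) and -0.07 (parotid and day 14). With 1 pair of arrays per group these values cannot settle it. With the replicate number as a block, 9, 7 and 1 probes were called for day 14 against untreated tumour, untreated tumour against parotid and day 14 against parotid.

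Some probes of Tsc1 and Rps6kb1 were not well above background in whole groups, where their differences are bounds only. Groups of 1 or 2 arrays limit all tests: a difference that missed the threshold is not shown to be absent.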
